A study of Mus musculus with 4 samples.

Results

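The genes described here encode the subunits of the mitochondrial respiratory chain and the ATP synthase, measured in mouse embryonic fibroblasts with and without Med1. Members were chosen by symbol: every Nduf gene (complex I), Sdha to Sdhd (complex II), every Uqcr gene (complex III), Cox4 to Cox8 genes (complex IV), every Atp5 gene (complex V), and Cycs, the carrier cytochrome c. The rule found 159 probe sets of 85 genes among the 22626 probe sets and 12393 genes of the array. Of the 85 genes, 80 were bright enough to be tested, among 8923 tested features in all. The 5 others were the complex IV genes Cox4i2, Cox6a2, Cox6b2, Cox7a1 and Cox8b. The symbols also caught 5 Ndufaf assembly factors and Cox7a2l, a supercomplex factor, and these 6 were counted apart from the structural subunits.

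The study concerned Med1, a subunit of the Mediator complex that links DNA-bound nuclear receptors and other activators to RNA polymerase II, and how stromal cells support blood stem and progenitor cells. It compared Med1-/- p53-/- with Med1+/+ p53-/- fibroblasts, 2 arrays each, hybridised to 3-prime expression arrays. The cells came from C57BL/6J embryos of day 10.0 produced by 1 crossing of a Med1+/- p53-/- male with a Med1+/- p53+/- female, so both groups lacked p53. Nothing in the labels tells whether a genotype's arrays were separate embryos or cultures. The p-values thus reflect the spread among 4 arrays alone, which may be technical.

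Complexes I, III and IV pump protons across the inner mitochondrial membrane while passing electrons from NADH to oxygen, through coenzyme Q between complexes I or II and III and through cytochrome c between III and IV. Complex II also belongs to the citric acid cycle and pumps no protons. Complex V lets protons back and makes ATP. All members are nuclear genes whose proteins are imported, and most complexes also hold core subunits encoded by mitochondrial DNA.

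Med1 itself checked the labels. Its deposited values were 664.6 and 885.6 in Med1+/+ cells and 25.4 and 40.2 in Med1-/- cells. It fell by 3.57 on the log2 scale (SE 0.14, limma with Benjamini-Hochberg adjustment over all tested features, adjusted p = 3.15e-05). The Med1-/- arrays were dimmer: their median deposited intensities were 36.1 and 51.4, against 76.25 and 106.7 on the Med1+/+ arrays. Levels below are therefore log2 intensities after quantile normalization unless stated otherwise. The fibroblast marker list was detected in both genotypes, with 11 of 12 genes tested, 4 higher and 4 lower. Of 8 epithelial markers, 6 were tested, 5 fell and 1 rose, where 39.1% of all features were called higher and 36.2% lower. The summed deposited intensity of these 8 markers, not scaled for the dimmer arrays, was 5185 and 7531 in Med1+/+ cells against 1464 and 2554 on the Med1-/- arrays. Most of the Med1-/- sums came from Krt19, the marker that rose, with a log2 change of 1.61. Its deposited values were 783.8 and 1078.4 in Med1+/+ cells and 1301.8 and 2362.2 in Med1-/- cells. Krt18 and Cdh1 had log2 changes of -4.45 and -4.50, and Epcam and Cldn4 were below the intensity filter. In RNA from whole cultures, fewer cells of a type and less RNA per cell cannot be told apart. The part of this difference in the results on respiratory genes was not tested.

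Respiratory genes changed in both directions. Of the 80 tested genes, 24 (30%) were called higher and 32 (40%) lower without Med1, at a threshold of 0.05 on the adjusted p, and 24 were not called. Over all tested features 39.1% were called higher and 36.2% lower. The arrays of the genotypes did not overlap for 69 of the 80 genes (86.2%), against 88.2% of all features. Changes of at least 2-fold were called for 5 members upward and 11 downward. Over all features they were called for 21.2% upward and 19.2% downward. The median absolute change of the members was 0.466 on the log2 scale, against 0.836 over all features. The members are bright: 70 of the 80 lay in the brightest 25% of features, in which the median absolute change was 0.716. With 1 probe set for each, the 80 tested members took 2.19% and 2.12% of all deposited signal in Med1+/+ cells and 2.43% and 2.37% in Med1-/- cells. Multiplying a whole array by a factor leaves that share alone, but quantile normalization can change it. Counted without the assembly and associated genes, 23 of 74 tested subunits rose and 29 were called lower.

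**Figure D1:**
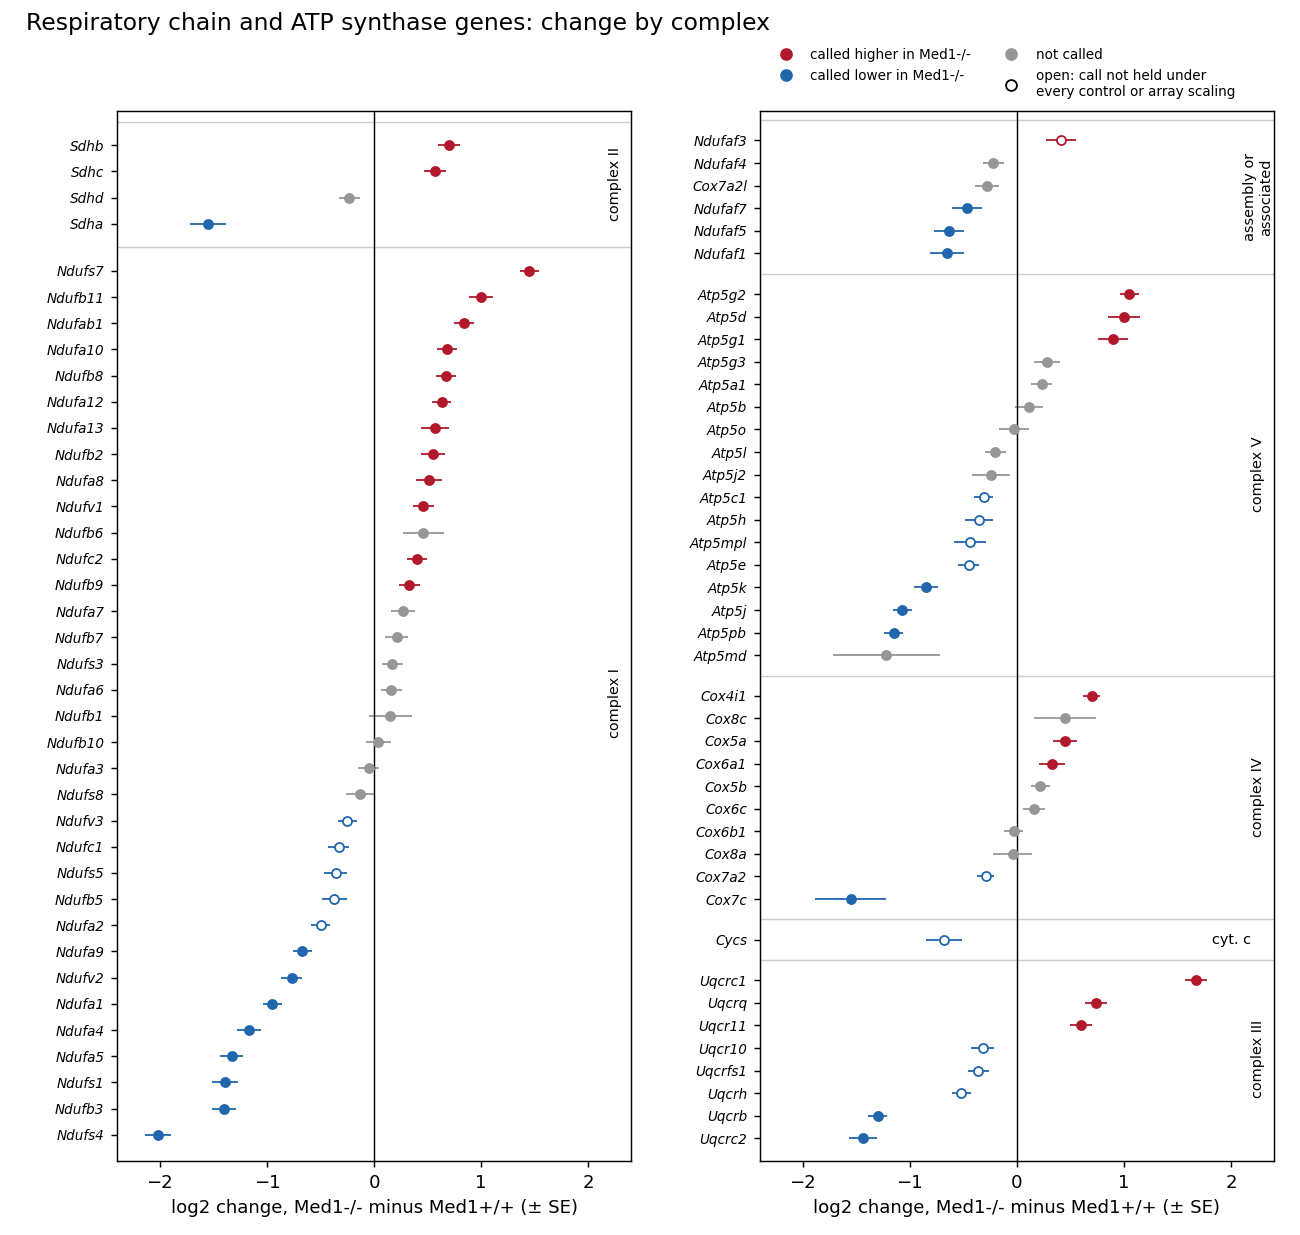
Log2 change (Med1-/- minus Med1+/+, horizontal axis, with its SE) of the 80 tested genes, 1 point per gene, grouped by complex; colour gives the call, and open coloured points mark calls that did not hold under every scaling. Most complexes hold genes on both sides of 0, from -2.02 for Ndufs4 to 1.67 for Uqcrc1.

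The direction of the smaller changes depended on how the arrays were scaled. After quantile normalization 42.9% of the members' calls were higher. With array medians set equal, 42 were called higher and 18 lower, so that 70.0% of calls were higher, and the median of all features itself stood at 0.30. With 75th percentiles set equal the counts were 34 and 20 (63.0% higher). With the hybridisation control spots set equal they were 6 and 50 (10.7% higher), with the Bacillus subtilis control spots 0 and 76, and with the deposited values unscaled 1 and 29 (3.33% higher). The background moved likewise. Over all features 45.3% were higher and 30.4% lower with array medians equal, and 39.4% and 35.1% with 75th percentiles equal. The shares were 13.2% and 59.9% with the hybridisation spots, 0.886% and 89.2% with the Bacillus subtilis spots, and 2.97% and 43.1% unscaled. A call is therefore said to have held when it had 1 sign under all scalings, less the shift of the median of all features, and stayed past the threshold under each but the unscaled values. By that rule 23 members rose (35.2% of all features did) and 18 fell (32.6% of all features). Less that shift, the scalings other than quantile normalization gave nearly the same change, as for Ndufs4 (-2.06 to -2.05). Holding is thus largely 1 comparison with quantile normalization, not several separate ones. The median member lay 0.14 below the median of all features when quantile normalized, but 0.05 to 0.07 above it in each other scaling. Most members moved upward in this way, such as Cox4i1 from 0.70 to 1.14 with array medians equal. The rule therefore let rises of members pass more readily than small falls. The counts that held do not show that the rises were firmer.

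**Figure D2:**
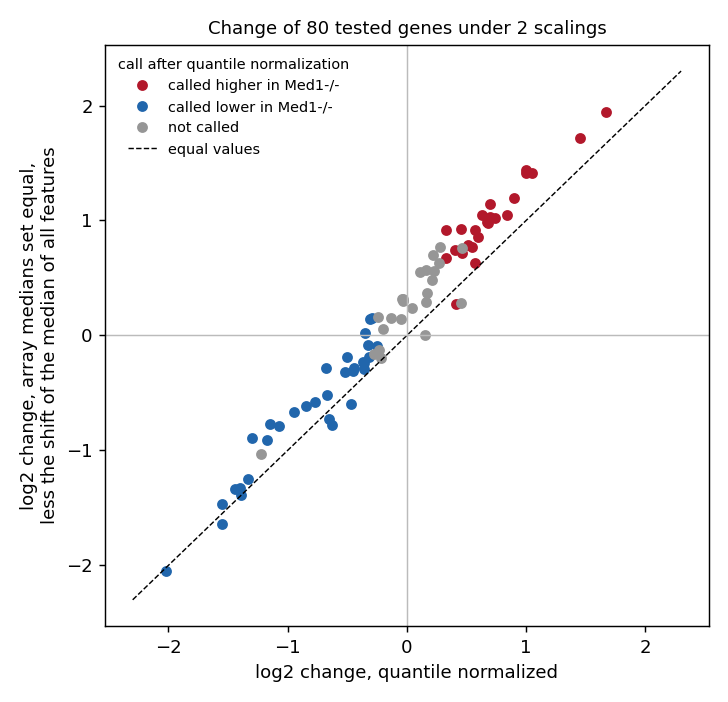
Log2 change of the 80 tested genes after quantile normalization (horizontal axis) and with array medians set equal, less the shift of the median of all features (vertical axis); points are genes coloured by their quantile-normalized call. Most points lie above the line of equal values, and Cox7a2 turns from -0.29 to 0.15.

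Without any scaling, 7 of the 80 tested members were brighter on both Med1-/- arrays than on both Med1+/+ arrays. That is a smaller share than the 12.3% of all features that were so, while 58.6% of all features were dimmer on both. They were Uqcrc1, Ndufs7, Ndufb11, Atp5d, Atp5g1, Atp5g2 and Cox6a1. The deposited values of Uqcrc1 were 1416.0 and 1850.4 in Med1+/+ cells and 2883.3 and 4101.6 in Med1-/- cells. Those of Ndufs7 were 1622.9 and 2198.9 against 2832.1 and 4176.7. In the deposited values 46 of the 80 were dimmer on both Med1-/- arrays, a share near the 58.6% of all features, and 27 overlapped.

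Promoters of respiratory genes are known for sites of NRF1, of the ETS factor GABP (NRF2) and of YY1. Promoters of 71 members were found in the RefSeq table (GRCm38.p6, from 250 bases before the start to 50 after). The letters GCGCNTGCG, written here for NRF1, occurred on either strand in 24 of the 71 (33.8%), against 9.68% of 17492 protein-coding genes. CCGGAAG, for ETS factors, occurred in 18 (25.4%, against 12.9%), and AAGATGGCG, for YY1, in 6 (8.45%, against 2.14%). The NRF1 and ETS letters shared 7 genes and the ETS and YY1 letters 1. A match describes letters and shows no binding. The windows below are shown because members with the same letters moved in opposite directions. Capitals mark the match, and each line is written 5′ to 3′ on the strand of the gene.
Uqcrc1 (rose; chr9:108936668-108936697, + strand): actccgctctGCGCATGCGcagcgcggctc
Atp5g2 (rose; chr15:102671070-102671099, - strand): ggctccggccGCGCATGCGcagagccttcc
Atp5k (fell; chr5:108434430-108434459, - strand): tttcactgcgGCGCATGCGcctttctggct
Sdha (fell; chr13:74350275-74350304, - strand): gggcgtgttgCGCAGGCGCagaatcttcca
Ndufa5 (fell; chr6:24527696-24527725, - strand): gtgtgagctgCGCAGGCGCaaatctacctc
Ndufs7 (rose; chr10:80249463-80249492, + strand): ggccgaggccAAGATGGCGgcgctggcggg
Ndufs4 (fell; chr13:114388045-114388074, - strand): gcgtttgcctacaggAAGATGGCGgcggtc
Atp5j (fell; chr16:84835045-84835074, - strand): aagtgtaggaAAGATGGCGgagtcttagct

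The same capitals thus stood in the promoters of Uqcrc1 and Atp5g2, which rose, and of Atp5k, which fell. In those windows of Uqcrc1, Atp5g2 and Atp5k the letters matched in both orientations, and the capitals mark the match as written. In Sdha and Ndufa5 they matched in the reverse orientation alone. Of the 24 genes with the NRF1 letters, 7 were called higher, 9 lower and 8 not, with changes from -1.55 to 1.67, where 39.1% of all features were called higher and 36.2% lower. Of the 18 with the ETS letters, 3 were called higher and 6 lower. Of the 6 with the YY1 letters, Ndufs7 rose, Ndufs4, Atp5j, Ndufa9 and Ndufc1 were called lower, and Atp5j2 was not called. In all of these but Atp5j the YY1 letters lay after the start, beginning at base 23 (Ndufc1) to 36 (Ndufs4).

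Complex I oxidises NADH with a peripheral arm that carries flavin and iron-sulfur clusters and a membrane arm that pumps protons. Of its 34 genes, all tested, 12 rose (35.3%, against 39.1% of all features), 13 were called lower (38.2%, against 36.2%) and 9 were not called. The arrays did not overlap for 30, which is 88.2%, as over all features. The median change was 0.15. All 12 rises and 8 of the 13 falls held under the scalings.

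Ndufs4, a peripheral-arm subunit whose loss causes mitochondrial encephalopathy in mice, had the largest fall among the members by their brightest probe sets. It read 9.89 and 9.79 in Med1+/+ cells and 7.74 and 7.90 in Med1-/- cells. It fell by 2.02 (SE 0.12, 4.06-fold, limma adjusted p = 3.49e-05). Both Med1-/- arrays lay far below both Med1+/+ arrays, and a further probe set above the filter fell by 1.27.

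Ndufs1, the largest peripheral-arm subunit, which carries iron-sulfur clusters, read 9.60 and 9.64 in Med1+/+ cells and 8.32 and 8.14 in Med1-/- cells. It fell by 1.39 (SE 0.12, limma adjusted p = 8.16e-05). Ndufb3, a small membrane-arm subunit, read 10.48 and 10.34 against 9.01 and 9.0 and fell by 1.40 (SE 0.11, limma adjusted p = 5.95e-05). Ndufa5, a peripheral-arm accessory subunit, read 10.60 and 10.65 against 9.22 and 9.38 and fell by 1.33 (SE 0.11, limma adjusted p = 7.04e-05). For these 3 genes the arrays of a genotype stood within 0.2 of each other and the genotypes were well apart.

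Ndufa4 was named for complex I and is now assigned to complex IV, but by its symbol it is counted here with complex I. It read 12.14 and 11.96 in Med1+/+ cells and 10.93 and 10.82 in Med1-/- cells, and fell by 1.17 (SE 0.11, limma adjusted p = 0.000101). The X-linked Ndufa1, a membrane-arm subunit needed for assembly, read 11.97 and 11.92 against 11.0 and 10.99 and fell by 0.95 (SE 0.09, limma adjusted p = 0.000119). Ndufv2, an iron-sulfur subunit, and Ndufa9, an accessory subunit of the peripheral arm, also fell, with changes of -0.77 and -0.67. The other 5 complex I genes called lower, Ndufa2, Ndufb5, Ndufs5, Ndufc1 and Ndufv3, had changes from -0.50 to -0.25, and those calls did not hold under every scaling.

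The largest rise in complex I was that of Ndufs7, which carries the last iron-sulfur cluster before coenzyme Q. It read 10.64 and 10.57 in Med1+/+ cells and 12.05 on both Med1-/- arrays. It rose by 1.45 (SE 0.09, 2.73-fold, limma adjusted p = 4.1e-05), and its second probe set rose by 1.34. Ndufs7 and Ndufs1 thus belong to the same arm and changed in opposite directions.

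Ndufb11, an X-linked membrane-arm subunit, read 11.73 and 11.49 in Med1+/+ cells and 12.68 and 12.55 in Med1-/- cells. It rose by 1.0 (SE 0.11, limma adjusted p = 0.000243), while the other X-linked member, Ndufa1, fell. Ndufab1, the mitochondrial acyl carrier protein, read 10.38 and 10.44 against 11.27 and 11.23 and rose by 0.84 (SE 0.09, limma adjusted p = 0.000231). Ndufa10, a membrane-arm accessory subunit, read 11.05 and 10.94 against 11.66 and 11.68 and rose by 0.68 (SE 0.09, limma adjusted p = 0.000609). The other 8 that rose, Ndufb8, Ndufa12, Ndufa13, Ndufb2, Ndufa8, Ndufv1, Ndufc2 and Ndufb9, had changes from 0.33 to 0.67. Ndufv1, which binds the flavin and NADH, was among them with 0.46.

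The complex I gene with the largest change that was not called was Ndufb6. It read 10.90 and 11.37 in Med1+/+ cells and 11.39 and 11.80 in Med1-/- cells (change 0.46, SE 0.19, limma adjusted p = 0.0608). The spread within each genotype nearly equalled the difference between them. With the replicate number as a block in the fit, Ndufb6 was called higher, though the labels tie no array numbers. Without Med1+/+ array 2 or Med1-/- array 1 it was called, at 0.70 and 0.67. The other 8 not called had changes from -0.13 for Ndufs8 to 0.27 for Ndufa7. The dimmest probe set of Ndufs8 was called higher at 1.18 in the fit of every probe set, while its others, at -0.14 to -0.06, were not called. Another 8 probe sets, all of complex I symbols, also carry the symbol of a copy, a pseudogene or another gene, such as those of Ndufa11 and Ndufb4, and were not assigned to a gene. Of these 8 probe sets, 5 were called higher, 2 lower and 1 was not called, in a fit of every probe set in which 36.3% were higher and 35.3% lower.

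Complex II, succinate dehydrogenase, showed its catalytic subunit and its iron-sulfur subunit changing in opposite directions. Sdha, the flavoprotein that oxidises succinate, read 10.78 and 10.64 in Med1+/+ cells and 9.40 and 8.91 in Med1-/- cells. It fell by 1.55 (SE 0.17, 2.93-fold, limma adjusted p = 0.000215). Sdhb, the iron-sulfur subunit, read 11.26 and 11.10 against 11.93 and 11.83 and rose by 0.70 (SE 0.10, limma adjusted p = 0.000737).

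The membrane anchors of complex II are Sdhc and Sdhd. Sdhc read 9.32 and 9.24 in Med1+/+ cells and 9.82 and 9.88 in Med1-/- cells, and rose by 0.57 (SE 0.10, limma adjusted p = 0.00208). Sdhd read 10.21 and 10.09 against 9.97 and 9.87 and was not called (change -0.23, SE 0.10, limma adjusted p = 0.0837). The arrays of the genotypes did not overlap for any of the 4 genes, as was so for 88.2% of all features. The calls of Sdha, Sdhb and Sdhc held under the scalings.

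**Figure D3:**
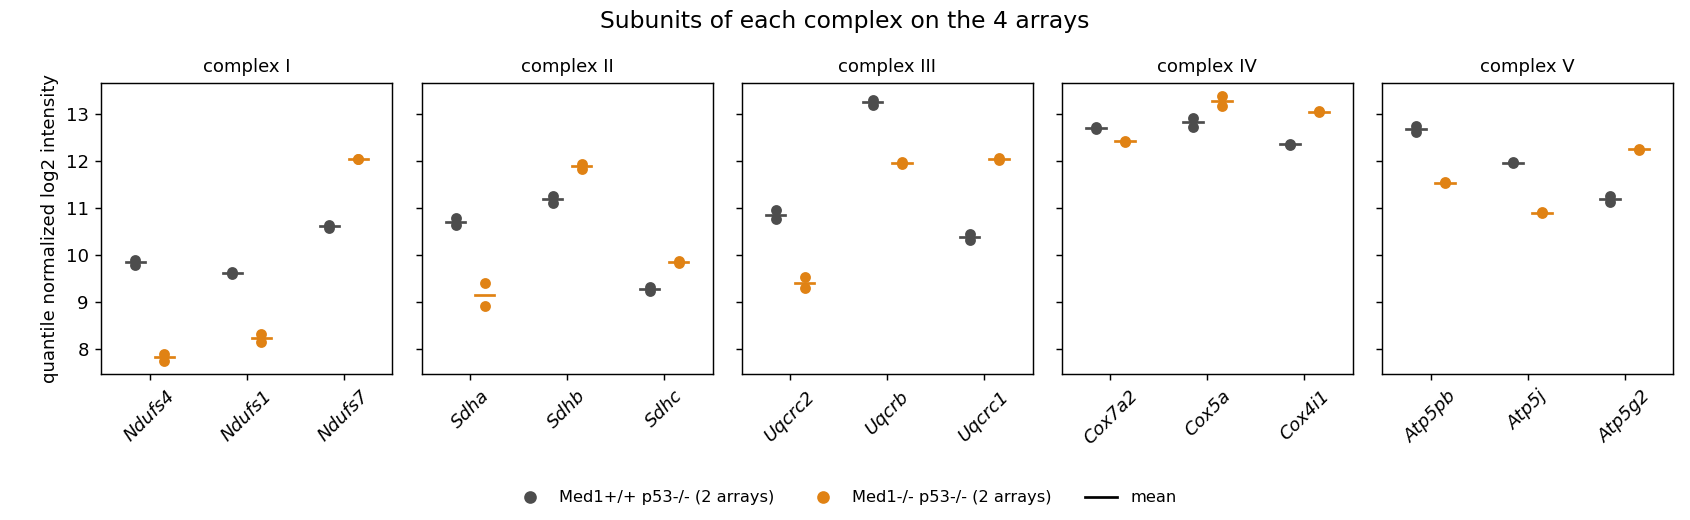
Quantile-normalized log2 intensity (vertical axis) of 3 subunits of each complex on the 4 arrays; points are arrays, short lines are genotype means (n = 2). Ndufs4, Ndufs1, Sdha, Uqcrc2, Uqcrb, Atp5pb and Atp5j were lower and Ndufs7, Sdhb, Sdhc, Uqcrc1, Cox5a, Cox4i1 and Atp5g2 higher on both Med1-/- arrays, and the call of Cox7a2 did not hold under other scalings.

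Complex III, the cytochrome bc1 complex, had all 8 of its Uqcr genes called, 3 higher (37.5%) and 5 lower (62.5%), with a median of -0.34. Over all features 75.3% were called, 39.1% higher and 36.2% lower. All 3 rises and 2 of the falls held. Its core proteins went opposite ways. Uqcrc1 (core 1) read 10.44 and 10.31 in Med1+/+ cells and 12.06 and 12.02 in Med1-/- cells. It rose by 1.67 (SE 0.10, 3.17-fold, limma adjusted p = 3.49e-05), the largest rise among the members by their brightest probe sets. Uqcrc2 (core 2), its partner, read 10.76 and 10.95 against 9.29 and 9.53 and fell by 1.44 (SE 0.13, 2.72-fold, limma adjusted p = 9.35e-05). For both genes the difference between genotypes was far larger than that between the arrays of a genotype.

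Uqcrb, a small subunit that binds quinone, read 13.19 and 13.30 in Med1+/+ cells and 11.93 and 11.97 in Med1-/- cells. It fell by 1.30 (SE 0.09, limma adjusted p = 4.77e-05), and its dimmer probe set fell by 2.13, more than the brightest probe set of Ndufs4. Uqcrh, the hinge protein, read 11.18 and 11.13 against 10.68 and 10.59 and was called lower (change -0.52, SE 0.09, limma adjusted p = 0.00219). Uqcrfs1, the Rieske iron-sulfur protein, read 10.54 and 10.46 against 10.17 and 10.11 and was called lower (change -0.36, SE 0.10, limma adjusted p = 0.0138). The calls of Uqcrh and Uqcrfs1 did not hold under every scaling. Uqcrfs1 was not called without Med1+/+ array 1 (-0.32) or Med1-/- array 2 (-0.33).

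The small subunits Uqcrq and Uqcr11 rose. Uqcrq, which binds ubiquinone with cytochrome b, read 10.87 and 10.85 in Med1+/+ cells and 11.66 and 11.54 in Med1-/- cells, a change of 0.74 (SE 0.10, limma adjusted p = 0.000429). Uqcr11 read 10.84 and 10.74 against 11.43 and 11.36, a change of 0.60 (SE 0.10, limma adjusted p = 0.00113). Uqcr10 was the single member of the 43 with several tested probe sets whose probe sets were called in opposite directions. Its brightest gave -0.32 and a dimmer one 0.57, so its direction is unsettled here. Of those 43 genes, 11 had probe sets that differed in call and 7 in sign. Cyc1, cytochrome c1 of the same complex, falls outside the symbol rule. It rose by 1.33 (SE 0.09, limma adjusted p = 4.56e-05), with deposited values of 3077.6 and 4004.5 against 5800.8 and 7357.2.

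Cytochrome c (Cycs), which carries electrons from complex III to IV and also takes part in apoptosis, read 12.57 and 13.08 in Med1+/+ cells and 12.04 and 12.25 in Med1-/- cells. It was called lower (change -0.68, SE 0.17, limma adjusted p = 0.00972), but not under every scaling. Its 2 dimmer probe sets had larger differences, -1.17 and -1.33.

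Complex IV, cytochrome c oxidase, passes electrons to oxygen. Its counts leave out Ndufa4, which fell and is counted here with complex I. Of its 10 tested genes 3 rose (30%, against 39.1% of all features) and 2 were called lower (20%, against 36.2%). The other 5 were not called, and the median was 0.19. The arrays did not overlap for 7 (70%, against 88.2% of all features). Cox4i1, the ubiquitous isoform of the regulatory subunit 4, read 12.34 and 12.36 in Med1+/+ cells and 13.04 and 13.05 in Med1-/- cells. It rose by 0.70 (SE 0.08, limma adjusted p = 0.00031). Cox5a, which joins Cox4 early in assembly, read 12.73 and 12.91 against 13.17 and 13.37 and rose by 0.45 (SE 0.11, limma adjusted p = 0.00842). Cox6a1 read 13.48 and 13.22 against 13.78 and 13.57 and rose by 0.33 (SE 0.12, limma adjusted p = 0.0422). Cox5a was not called without Med1+/+ array 1 (0.36) or Med1-/- array 2 (0.35). Cox6a1 was not called without Med1+/+ array 2 (0.20) or Med1-/- array 1 (0.22).

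Cox7c was called lower, at low intensity. It read 5.84 and 5.74 in Med1+/+ cells and 4.48 and 3.99 in Med1-/- cells (change -1.55, SE 0.33, limma adjusted p = 0.00443). Both Med1-/- values lay under the mean log2 of 4.979 that the filter required, and the gene passed through its Med1+/+ arrays. Cox7a2, the ubiquitous isoform of subunit 7a, read 12.68 and 12.72 against 12.43 and 12.40 and was called lower (change -0.29, SE 0.08, limma adjusted p = 0.0187). Less the shift of all features, its change was 0.13 to 0.15 under the 5 other scalings, so its direction is not settled. Without any single array it was not called (-0.31 to -0.26), and Cox7c was not called without Med1+/+ array 1 (-1.50).

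Cox6b1, Cox6c, Cox5b and Cox8a had changes from -0.04 to 0.22 on their brightest probe sets and were not called. A dimmer probe set of Cox6c was called higher at 0.58, and dimmer ones of Cox5b at 0.34 and 0.29, in the fit of every probe set. Cox8a read 12.12 and 11.81 in Med1+/+ cells and 12.16 and 11.69 in Med1-/- cells, so its arrays overlapped. Cox6b1 read 12.05 and 11.96 against 11.95 and 12.0 and overlapped too.

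Of the tissue isoforms of complex IV, 5 were below the intensity filter. In muscle, heart, lung or testis these isoforms stand in for the ubiquitous ones. Cox4i2 read 4.13 and 3.91 in Med1+/+ cells and 4.19 and 2.81 in Med1-/- cells. Cox6a2 read 5.03 and 4.32 against 5.47 and 4.85, and Cox6b2 read 4.32 and 3.88 against 4.91 and 4.87. Cox7a1 read 4.04 and 4.30 against 3.97 and 4.22, and Cox8b read 1.36 and 2.1 against 1.42 and 1.52. They were not tested, and the 12 skeletal and cardiac muscle markers were below the filter as well. Cox8c, a testis isoform, was tested and not called, reading 7.00 and 6.12 against 7.14 and 6.88 (change 0.45, SE 0.29, limma adjusted p = 0.2). Without Med1+/+ array 1 it was called higher, at 0.89.

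Complex V consists of the catalytic F1 head, the proton-carrying c-ring in the membrane and the stalks that join them. Of its 17 genes 3 rose (17.6%, against 39.1% of all features) and 7 were called lower (41.2%, against 36.2%). The other 7 were not called, and the median was -0.24. Less the median of all features, the complex V median stood at -0.33 when quantile normalized, but at 0.03 to 0.05 in each other scaling. All 3 rises and 3 of the falls held.

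The c-ring is encoded by Atp5g1, Atp5g2 and Atp5g3, whose mature proteins are identical. Atp5g2 read 11.25 and 11.12 in Med1+/+ cells and 12.26 and 12.23 in Med1-/- cells, and rose by 1.05 (SE 0.09, 2.08-fold, limma adjusted p = 0.000101). Atp5g1 read 11.11 and 10.76 against 11.89 and 11.77 and rose by 0.90 (SE 0.14, limma adjusted p = 0.000903). Atp5g3 read 13.18 and 12.93 against 13.45 and 13.23 and was not called (change 0.28, SE 0.12, limma adjusted p = 0.0722). Both Med1-/- arrays were above both Med1+/+ arrays for each of the 3. Atp5g3 was called higher without Med1+/+ array 1 (0.41) or Med1-/- array 2 (0.39).

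In the central stalk Atp5d (subunit delta) rose and Atp5e (subunit epsilon) did not. Atp5d read 11.82 and 11.49 in Med1+/+ cells and 12.81 and 12.51 in Med1-/- cells, and rose by 1.0 (SE 0.15, limma adjusted p = 0.000753). Atp5e read 10.72 and 10.60 against 10.23 and 10.19 and was called lower (change -0.45, SE 0.10, limma adjusted p = 0.00526), though not under every scaling. The catalytic Atp5b, its partner Atp5a1 and the stalk subunit Atp5o had changes of 0.11, 0.23 and -0.03 and were not called. In the fit of every probe set, the dimmest probe set of Atp5a1 was called higher at 0.83, and another, at 0.01, was not called.

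The 3 falls that held in complex V were those of Atp5pb and Atp5j, of the peripheral stalk, and Atp5k, of the membrane part. Atp5pb (subunit b) read 12.62 and 12.74 in Med1+/+ cells and 11.52 and 11.55 in Med1-/- cells, and fell by 1.15 (SE 0.09, 2.21-fold, limma adjusted p = 7.13e-05). Atp5j (coupling factor 6) read 11.96 and 11.97 against 10.91 and 10.89 and fell by 1.07 (SE 0.09, 2.09-fold, limma adjusted p = 8.02e-05). Atp5k (subunit e), which links synthase dimers, read 11.67 and 11.47 against 10.69 and 10.75 and fell by 0.85 (SE 0.11, limma adjusted p = 0.000386). The genotypes were separated for all 3, and their calls held.

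Atp5md, a small membrane subunit, had the largest uncalled difference among the members. It read 10.70 and 12.03 in Med1+/+ cells and 9.55 and 10.75 in Med1-/- cells (change -1.22, SE 0.50, limma adjusted p = 0.0605). Its arrays overlapped, and within each genotype they differed by more than 1 on the log2 scale. With the replicate number as a block in the fit, Atp5md was called lower, though the labels tie no array numbers. It was called lower without Med1+/+ array 1 (-1.88) or Med1-/- array 2 (-1.82). Atp5mpl, Atp5h and Atp5c1 had changes from -0.44 to -0.31 that were called lower but did not hold, and Atp5j2 and Atp5l, at -0.24 and -0.20, were not called.

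Assembly factors build the complexes without staying in them. Of the 6 assembly and associated genes caught by the rule, Ndufaf1, Ndufaf5 and Ndufaf7 fell, and those 3 calls held. They are 50% of the 6, where 36.2% of all features were called lower. Ndufaf1, a chaperone of the complex I membrane arm, read 8.54 and 8.34 in Med1+/+ cells and 7.62 and 7.95 in Med1-/- cells (change -0.65, SE 0.16, limma adjusted p = 0.00736). Ndufaf5 read 7.82 and 7.65 against 7.16 and 7.06 (change -0.63, SE 0.14, limma adjusted p = 0.00551). Ndufaf7, a methyltransferase, read 7.78 and 7.77 against 7.21 and 7.40 (change -0.47, SE 0.14, limma adjusted p = 0.0176). It was not called without Med1+/+ array 1 (-0.46), Med1+/+ array 2 (-0.47) or Med1-/- array 1 (-0.37).

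Ndufaf3 read 7.17 and 7.22 in Med1+/+ cells and 7.54 and 7.67 in Med1-/- cells and was called higher (change 0.41, SE 0.14, limma adjusted p = 0.0286), though not under every scaling. It was not called without Med1+/+ array 1 (0.38), Med1+/+ array 2 (0.44) or Med1-/- array 2 (0.34). Cox7a2l, which joins complexes III and IV, read 10.43 and 10.29 against 10.15 and 10.01 and was not called (change -0.28, SE 0.11, limma adjusted p = 0.0547). Ndufaf4, at -0.22, was not called, while its dimmer probe set was called lower at -1.04.

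Position in the genome was a feature that the rule did not use. All 5 tested members on chromosome 13 (GRCm38.p6), Ndufs4, Sdha, Cox7c, Uqcrb and Uqcrfs1, were called lower, with a median change of -1.55. Of these, Cox7c passed the filter only through its Med1+/+ arrays, and the call of Uqcrfs1 did not hold under every scaling. The chromosome as a whole was lower: of its 288 tested genes 68.1% were called lower and 12.2% higher, with a median of -0.94. The 236 X-linked genes had a median of -0.69 and 57.2% called lower. Without the members on chromosomes 13 and X, 23 of 73 were called higher and 26 lower, with a median of -0.03. Whether the change of the chromosome 13 members is separate from that of the chromosome was not tested. On chromosome 10, 4 of 5 members rose, where 45.8% of all genes there were called higher. On chromosome 6, 4 of 5 members were called lower, as were 44.2% of all genes there. On chromosome 3 all 3 were called lower, as were 51.8% of all genes there.

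**Figure D4:**
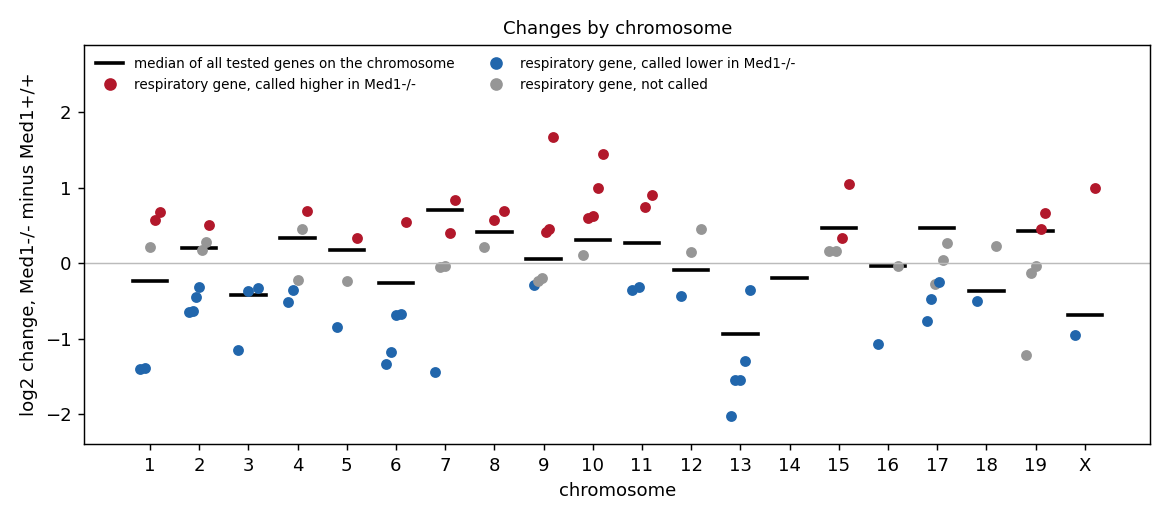
Log2 change (Med1-/- minus Med1+/+, vertical axis) of the respiratory genes on each chromosome (points coloured by call), with the median of all tested genes there (black bars). The 5 members on chromosome 13 lie below 0, where the bar stands at -0.94.

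The members are short genes, with a median genomic length of 7336.5 bases against 22295 for all tested genes. Over 7869 genes, longer genes had lower changes (Spearman's rho -0.26, a description across genes, which are not independent). Among the 80 members rho was -0.10.

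The genes that build and feed the chain were also called in both directions, where 39.1% of all features were called higher and 36.2% lower. Of 27 tested assembly factors from a list outside the symbol rule, 12 were called higher and 9 lower, with a median of 0.28, and all but 1 of these calls held. The largest were rises: Sco2, a copper chaperone of complex IV, at 1.94, Ecsit and Timmdc1, of complex I, at 1.82 and 1.52, and Oxa1l, the inner membrane insertase, at 1.56. Of 8 tested genes of coenzyme Q synthesis, 4 were called higher and 0 lower in the limma fit. They were Coq4 at 1.84, Coq6 at 1.54, Coq9 at 0.66 and the dim Coq8b at 0.77, whose call did not hold under every scaling. In the electron-transferring flavoprotein, the paired subunits differed: Etfa fell by 1.34 and Etfb rose by 1.13. Atpif1, the inhibitor of the ATP synthase, fell by 1.03.

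Of 17 tested citric acid cycle genes 10 were called lower and 6 higher, with a median of -0.51. Over all features 36.2% were called lower and 39.1% higher. Dld, the dihydrolipoamide dehydrogenase shared by the large dehydrogenase complexes, fell by 1.59. Sucla2 and Suclg2, the beta subunits of succinyl-CoA synthetase, changed by -1.38 and -1.31, and Pcx, pyruvate carboxylase, rose by 1.48. These values are from the same limma fit, with adjusted p from 6.36e-05 (Dld) to 0.000254 (Pcx).

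Regulators of mitochondrial biogenesis were 4 higher and 6 lower of 16 tested, where 39.1% of all features were called higher and 36.2% lower. Polrmt, the mitochondrial RNA polymerase, rose by 2.31, and Pprc1, a coactivator of the PGC-1 family, by 1.38. Mterf3, which represses mitochondrial transcription, fell by 2.04, and Gabpa, the DNA-binding part of GABP, fell by 1.55. Tfam, which packs and transcribes mitochondrial DNA, fell by 1.14. Nrf1 was not called (change 0.17, SE 0.13, limma adjusted p = 0.267). Yy1 was called lower at -0.26, and that call did not hold under every scaling.

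Among 18 tested genes of mitochondrial dynamics and inner membrane structure, 6 rose and 8 fell. For this list and the next, 39.1% of all features were called higher and 36.2% lower. Mff and Dnm1l, which act together in fission, fell, with changes of -2.66 and -1.39, and Immt, the core of the cristae junction complex, fell by 1.41. Tomm40, the import pore of the outer membrane, rose by 1.37. In the list of uncoupling and hypoxia genes 2 of 8 tested rose and 5 were called lower, 3 of them with a call that held. Those were Pdk1, which blocks pyruvate entry into the cycle, at -3.76, Bnip3, a mitophagy receptor, at -2.55, and Hif1a, at -1.71. Pdk4 rose by 1.15.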

How the data were processed

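The authors deposited, for every probe set on every array, 1 signal intensity on a linear scale. Their summarisation, background correction and scaling are not given in the sources used here; total RNA was labelled with a 3-prime in vitro transcription kit, per the labels' protocols. Probe sets were named from the platform annotation: 20380 have 1 symbol, 691 several and 1555 none, and 64 control probe sets were set aside. Intensities were quantile normalized and converted to log2(value + 1.7), where 1.7 is the 10th percentile of the table. Probe sets with a mean log2 under the 40th percentile (4.979) were left out (9050), and the brightest probe set stood for a gene. Genotypes were compared with the two-sided moderated test of limma 3.58.1 (R 4.3.3), with an intensity trend in eBayes and with 2 residual and 4.71 prior degrees of freedom, with Benjamini-Hochberg adjustment over all 8923 features and a threshold of 0.05. The code was tested on simulated data. The number of arrays limits the precision. Fold changes of dim genes are understated by the added 1.7.

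The members, motifs and gene lists were chosen with earlier results of these data known. Named with array values are, per complex, up to 4 called genes with the largest rise and up to 4 with the largest fall, the largest uncalled change, tissue isoforms, X-linked genes and genes below the filter; other lists give up to 4 called genes. Tfam, Nrf1 and Yy1, the members named with no array values and the promoter windows were picked after their values were seen. Alternatives covered scaling, filter, pseudocount, probe-set choice, the trend, a replicate block, a 2-fold threshold and leaving out each array.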

Additional observations from a re-analysis of the deposited data

How the results depend on the processing

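Of the 37 called members given with array values, 18 kept direction and call under each alternative that gave them a value, the fold threshold aside, and 11 of these had a value under all 17. Cox7a2 reversed. Filters, both pseudocounts (1 and 16) and the trend moved no count of called genes by over 1.5 times. The control-spot scalings and the count without chromosomes 13 and X were chosen after seeing the data.

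Members called higher (24) and lower (32) became 1 and 29 unscaled, 42 and 18 with array medians equal, 34 and 20 with 75th percentiles equal, 6 and 50 with hybridisation controls, 0 and 76 with Bacillus subtilis controls, 15 and 21 with probe sets ending in _at alone (fewer genes tested), and 5 and 11 when a log2 change of 1 was also required. Features called higher (3490) became 265 unscaled, 1178 and 79 with the control scalings, and 1890 with the fold threshold; those called lower (3232) became 5343, 7953 and 1715 with the last 3. The members' median relative to all features (-0.136) became 0.056 unscaled, 0.066, 0.065, 0.057 and 0.046 under the other scalings, -0.07 with probe sets averaged and -0.205 with _at alone; leaving out 1 array gave -0.264 (without Med1+/+ array 2) to -0.095. The single member with opposite probe-set calls became 0 with values unscaled, 75th percentiles, either control scaling, no trend or the fold threshold, 3 with no filter, and 0 to 1 leaving out 1 array. Leaving out 1 array gave 22 to 24 members higher and 22 to 26 lower, and for at least 1 array ended the calls of 16 of all called members: Atp5c1, Atp5h, Atp5mpl, Cox5a, Cox6a1, Cox7a2, Cox7c, Ndufaf3, Ndufaf7, Ndufb5, Ndufb9, Ndufc1, Ndufs5, Ndufv3, Uqcr10 and Uqcrfs1; the lone array left in a genotype is assumed to vary like the other 2.

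Less the shift of all features, Cox7a2 was 0.14 unscaled and under hybridisation controls, 0.15 with medians or 75th percentiles equal and 0.13 with Bacillus subtilis controls. Cox6b1 and Cox8a, not called, were 0.31, 0.32, 0.32, 0.31 and 0.30 under these 5, and 0.01 and 0.02 with probe sets averaged. Cox6b1 was 0.06 with _at alone. Leaving out 1 array gave -0.08 to 0.01 for Cox6b1 and -0.28 to 0.19 for Cox8a. The cause was not tested.

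Same-numbered arrays deviated together (correlation 0.27 over all features, 0.77 over members), but the labels tie no numbers. With the replicate number as a block, 33 members were called higher and 38 lower, none of the 37 called lost its call, and 6 of the 8 uncalled genes given with array values were called (Atp5md, Atp5g3, Ndufb6, Cox8c, Cox7a2l and Sdhd).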
